A study of Homo sapiens with 2 samples.

Results

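Receptor tyrosine kinases were compared between SW620 cells made to express CDR1AS (1 array) and SW620 cells carrying a control lentivirus (1 array). The set held 43 genes of the 18638 with a symbol on the arrays: 41 receptors, without the ephrin receptors, EGFR and IGF1R, and the ligands GAS6 and HGF. They were taken by symbol from the platform's probe annotation and had 51 probes, 1 probe for 37 genes and several for 6. SW620 is an established human colon carcinoma line of metastatic origin, grown here in DMEM with serum, and CDR1AS is a circular RNA rich in binding sites for the microRNA miR-7. The labels give neither the promoter behind CDR1AS nor whether the cells were 1 clone. Circular CDR1AS itself was not analysed here, so its level does not check the labels.

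Receptor tyrosine kinases are single-pass membrane proteins that dimerise when a ligand binds, phosphorylate each other on tyrosine and recruit adaptors that feed the MAPK, PI3K and phospholipase C pathways. In intestinal epithelium the ERBB receptors, MET and the insulin receptor family are known for driving growth and repair. AXL, with TYRO3 and MERTK, forms the TAM family, whose ligands GAS6 and protein S bridge the receptor to phosphatidylserine, and AXL is known in carcinoma lines as a marker of invasive and drug-tolerant states.

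On the CDR1AS array AXL was 4.42-fold higher and FGFR3 2.52-fold lower, and the other 31 genes detected on both arrays were within 2-fold. A further 7 were detected on 1 array and have only a lower bound on their fold. Thus 1 of 40 measured genes was called past 2-fold each way, where 0.755% of all measured genes were on the higher side and 0.575% on the lower side, 1.33% together. With counts of 1, these shares cannot be told from that background. Each group was a single array, so the values carry no replicate error and no test was run. As a scale, the 24 spots of each positive control had an SD (log2 scale) of 0.13 to 0.24 on the CDR1AS array and 0.10 to 0.14 on the control array. In 2001 genes with a pair of probes above background, the log2 ratios of the pair differed by a median of 0.11, and in 95% of them by no more than 0.48.

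The sequences before the start of AXL, FGFR3 and GAS6 are shown because AXL and FGFR3 are the genes past 2-fold and GAS6 is the ligand of AXL. Each run is the 250 bases before an annotated start, 5′ to 3′ on the gene's strand, from RefSeq on GRCh38.p14. AXL has 2 annotated starts, and both are printed. Capitals mark the core of a Sp1 GC box (GGGCGG) or of a TEAD site (GGAATG), searched on both strands, and no matches overlapped.
AXL, first start, chr19:41218973-41219222, plus strand: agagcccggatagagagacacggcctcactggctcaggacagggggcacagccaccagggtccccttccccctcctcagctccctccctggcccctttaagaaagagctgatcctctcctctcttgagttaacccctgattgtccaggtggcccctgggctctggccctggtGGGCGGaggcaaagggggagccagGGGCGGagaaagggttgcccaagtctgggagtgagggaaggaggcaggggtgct
AXL, second start, chr19:41226505-41226754, plus strand: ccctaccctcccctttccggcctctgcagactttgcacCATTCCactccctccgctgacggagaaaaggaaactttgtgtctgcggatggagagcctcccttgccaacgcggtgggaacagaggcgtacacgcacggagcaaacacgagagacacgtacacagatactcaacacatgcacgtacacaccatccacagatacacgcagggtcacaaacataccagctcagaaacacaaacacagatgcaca
FGFR3, chr4:1793043-1793292, plus strand: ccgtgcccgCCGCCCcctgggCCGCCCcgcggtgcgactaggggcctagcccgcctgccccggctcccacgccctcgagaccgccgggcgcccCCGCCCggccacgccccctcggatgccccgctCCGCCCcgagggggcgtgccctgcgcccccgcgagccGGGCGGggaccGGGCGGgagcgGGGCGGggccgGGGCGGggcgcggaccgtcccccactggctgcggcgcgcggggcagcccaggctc
GAS6, chr13:113864077-113864326, minus strand: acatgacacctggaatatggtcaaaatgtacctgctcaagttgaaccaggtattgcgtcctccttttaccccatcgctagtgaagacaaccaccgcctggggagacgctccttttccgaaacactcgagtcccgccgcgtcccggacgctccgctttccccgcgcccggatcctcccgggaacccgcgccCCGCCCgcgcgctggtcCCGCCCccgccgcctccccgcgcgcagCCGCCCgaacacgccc

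The stretch before the first AXL start held 2 GC boxes, 78 and 54 bases before the start, and that before the second held 1 TEAD core, 212 bases before it. The FGFR3 stretch, with 86.8% G and C, held 8 GC boxes, and the GAS6 stretch held 3. None of the 4 stretches held an AP-1 core (TGANTCA). Among all 35116 promoters of the table, 42.6% held a GC box, 11.9% a TEAD core and 6.57% an AP-1 core in the same window. Of 63 promoters of the 38 receptor and ligand genes found there, 34 held a GC box, 7 a TEAD core and 5 an AP-1 core. These matches describe letters in a window, and the binding of factors was not analysed here.

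Detection was judged against blank spots, which carry no probe. A spot was above background where it exceeded the mean of 384 blanks by more than 2 SD, a limit of 72.1 intensity units on the CDR1AS array and 69.1 on the control array. By this limit 37 of the 43 genes were above background on the CDR1AS array (86.0%, against 88.7% of all genes) and 36 on the control array (83.7%, against 86.2%). Both arrays detected 33 of them. The CDR1AS array alone detected 4 (MERTK, PDGFRA, FLT3 and RET), and the control array alone 3 (INSR, INSRR and STYK1). ERBB4, ALK and TEK were not above background on either. At least a single array thus detected 40 of the 43 genes, and both arrays 33. Among all 18638 genes, 16685 were detected by at least a single array and 15905 by both. Detection not shared by both arrays was therefore more frequent in the set than among all genes. Whether the spot level of these genes accounts for that was not tested.

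The limit was lenient, since 20 of 96 negative-control spots exceeded it on the CDR1AS array and 4 on the control array. The brightest negative-control spot had 108 units on the CDR1AS array and 97.8 on the control array. On both arrays 19 genes exceeded it: AXL, GAS6, MET, MST1R, ERBB2, ERBB3, PDGFRB, KDR, FGFR1, FGFR3, FGFR4, NTRK2, ROR2, MUSK, DDR1, PTK7, RYK, AATK and LMTK3. No share of all genes above that spot is given here, so the count of 19 is not a comparison. Only 11 genes (25.6%) reached 2 times the blank limit on both arrays, against 39.7% of all genes. The receptors were thus mostly measured in the dim range, where the offset of the normalization pulls folds towards 1. Brightness also depends on the probe, so the spot of one gene is not set against that of another.

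**Figure D1:**
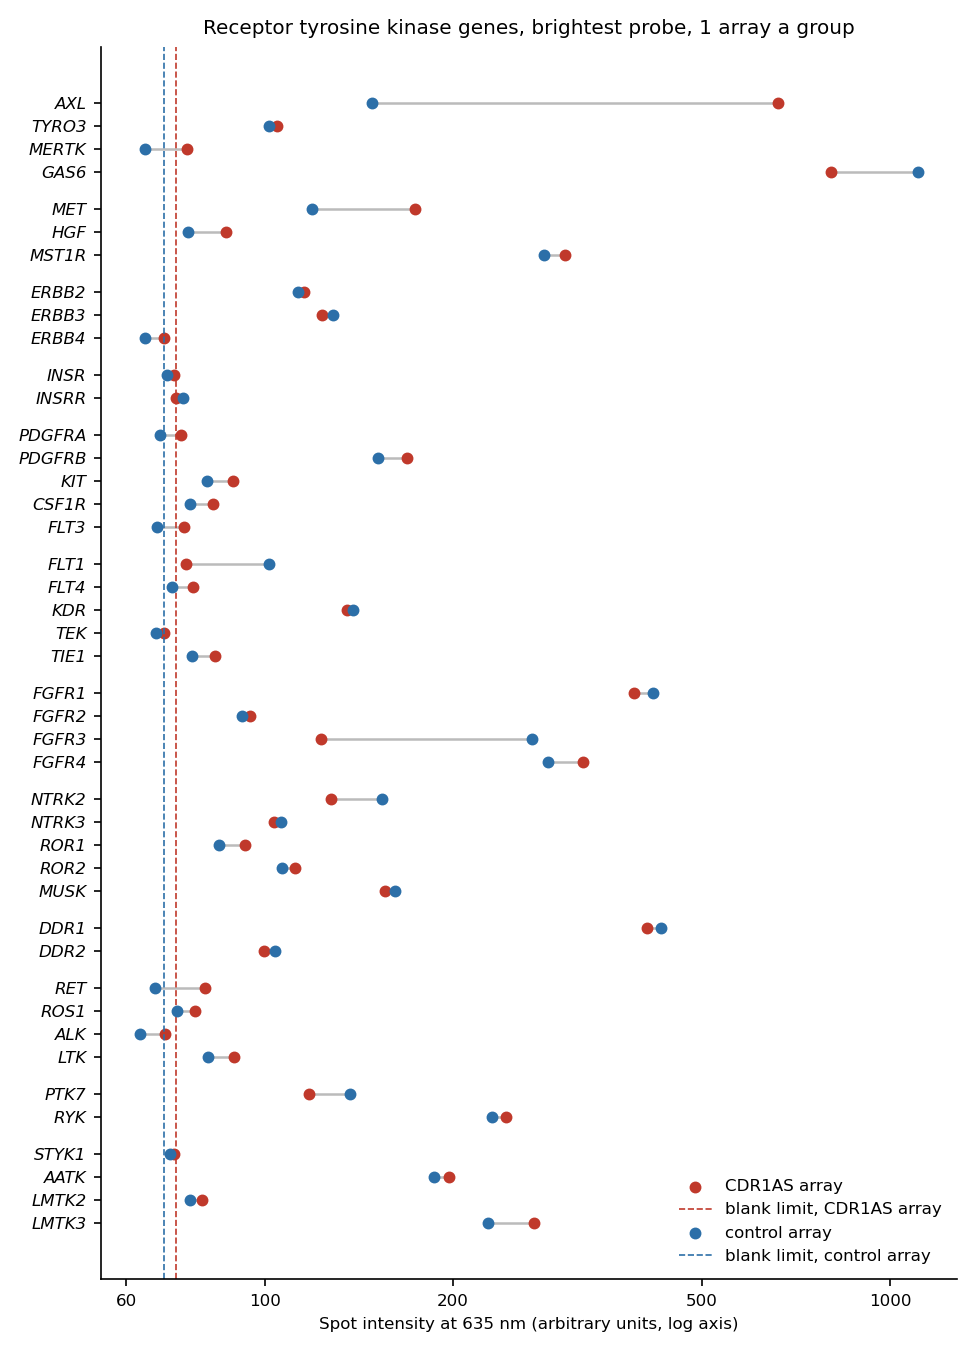
Spot intensity (log axis) of the brightest probe of each of the 43 genes on the CDR1AS array (red) and the control array (blue), grouped by family from top to bottom, with the blank limits of 72.1 and 69.1 as dashed lines. The widest gaps are those of AXL, with 662 and 149 units, and FGFR3, with 123 and 268, while many genes lie close to the limits.

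Colon epithelium markers were detected on both arrays. The sums below compare the arrays within a list, not one list with another. Of 10 colon epithelium markers on the arrays, 9 were above background on each. Their summed intensity over the blanks was 54827 units on the CDR1AS array and 65410 on the control array, most of it from the brightest KRT18 probe. Their log2 ratios ran from −0.82 (CDX2) to 0.19 (VIL1), with 3 above 0 and 7 below. The other KRT18 probes had 91.2 and 161 units on the CDR1AS array, against 91.4 and 156 on the control array. Fibroblast markers summed to 301 units on the CDR1AS array and 328 on the control array, with 4 of 8 above background on each and COL1A1, COL1A2 and COL3A1 on neither. Endothelial markers summed to 339 units on the CDR1AS array and 254 on the control array, with 6 of 7 above background on the CDR1AS array and 4 on the control array. PECAM1 had 98.3 units on the CDR1AS array and 66.4 on the control array, and gave a log2 ratio of 0.03 with the local background column. ESAM had 288 units on the CDR1AS array and 237 on the control array. CDH5, VWF, CLDN5 and ROBO4 gave log2 ratios between −0.03 and 0.04, and EMCN was above background on neither array. Leukocyte markers summed to 112 units on the CDR1AS array and 116 on the control array, with 4 of 5 above background on each and PTPRC on neither. CD14 had 120 units on the CDR1AS array and 122 on the control array, and LAPTM5 had 112 and 105. CD3E had 84.4 and 82.3 units on the same arrays, and ITGAM had 72.6 and 69.3. The part of the markers of all these lists in the values of the receptors was not tested.

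Across the 40 measured genes, the log2 ratio (CDR1AS minus control) had a median of −0.02 and quartiles of −0.15 and 0.05, with 17 genes above 0 and 23 below. Over all 16685 measured genes the median was −0.01 and the quartiles were −0.10 and 0.09. The middle of the distribution was thus close to that of all genes. AXL had the 12th highest ratio of all 16685 genes, and FGFR3 the 37th lowest. Both lay among the 3337 genes of the second brightest class when genes were split by mean spot level into 5 equal classes. In that class 1.47% of genes were past 2-fold each way, 2.94% together, and the central 98% of ratios ran between −1.15 and 1.14.

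**Figure D2:**
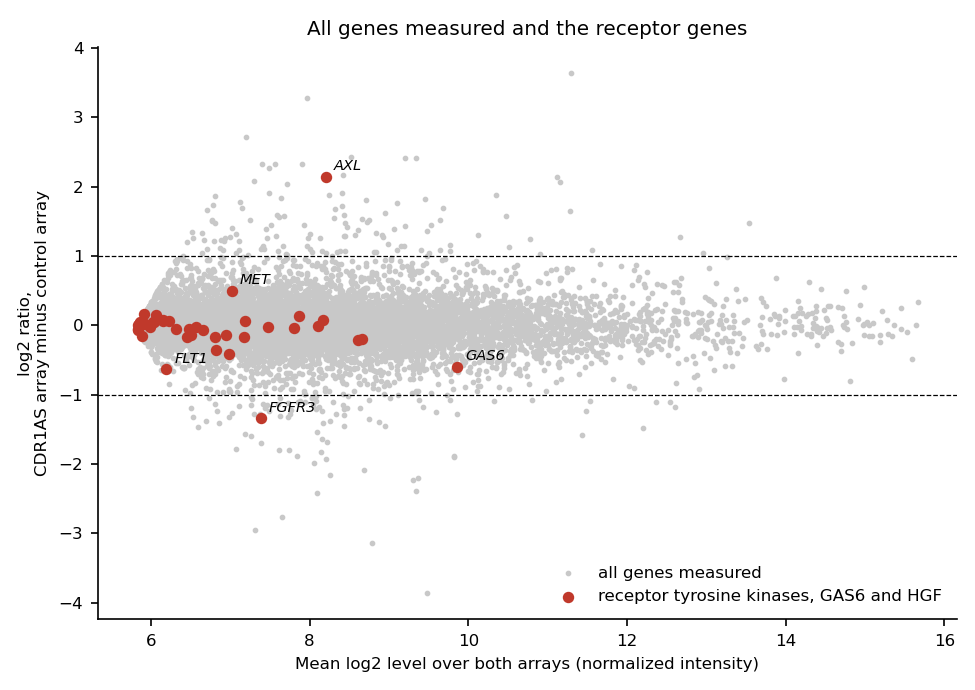
Log2 ratio (CDR1AS array minus control array) against the mean log2 level for all 16685 measured genes (grey) and the 40 measured receptor and ligand genes (red), with dashed lines at 2-fold. AXL at 2.14 and FGFR3 at −1.33 lie outside the lines, and the other genes of the set lie in the grey band, many toward its dim end.

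In the TAM family, the receptor AXL and, by its brighter probe, the ligand gene PROS1 were past 2-fold higher in the main setting, and the ligand gene GAS6 was below 0. With the local background column the brighter probes of both ligand genes were above 0. The AXL probe had 662 units on the CDR1AS array and 149 on the control array, both above 2 times the blank limit. Its log2 ratio was 2.14. In such bulk RNA, more cells with the transcript and more transcript per cell cannot be told apart. In the deposited value table, which subtracts the blank level and adds no offset, AXL had 271 on the CDR1AS array and 39.4 on the control array, a 6.88-fold difference. AXL had a single probe, so no other probe bears on this value.

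TYRO3, which shares the ligands of AXL, had 105 units on the CDR1AS array and 101 on the control array, a log2 ratio of −0.05. MERTK, the family member known for clearance of dying cells by phagocytes, was not above background on the control array, at 64.3 units, and was at least 1.03-fold higher, a bound so close to 1 that it gives no size. Of the TAM receptors detected on both arrays, AXL was past 2-fold and TYRO3 was not.

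GAS6, the vitamin K-dependent ligand with the highest affinity for AXL, was lower by both of its probes in the main setting. The brighter probe had 804 units on the CDR1AS array and 1107 on the control array, a log2 ratio of −0.60. The other had 725 units on the CDR1AS array and 972 on the control array, a log2 ratio of −0.55. The probes gave nearly the same ratio, within 2-fold. With the local background column taken as background they disagreed, at 0.82 for the brighter probe and −1.31 for the other, so the direction of GAS6 depends on that choice. PROS1, which encodes protein S, the other TAM ligand, was 2.10-fold higher, with 307 units on the CDR1AS array and 142 on the control array (log2 ratio 1.07). Its other probe gave 0.63, and the local background column gave 0.59, so the direction was shared and the 2-fold mark was not.

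The genes next to AXL did not share its difference. The 5 measured genes on each side of it on chromosome 19 had log2 ratios between −0.23 and 0.08, and 0 of the 10 were past 2-fold. Among them TGFB1 had a log2 ratio of 0.08.

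**Figure D3:**
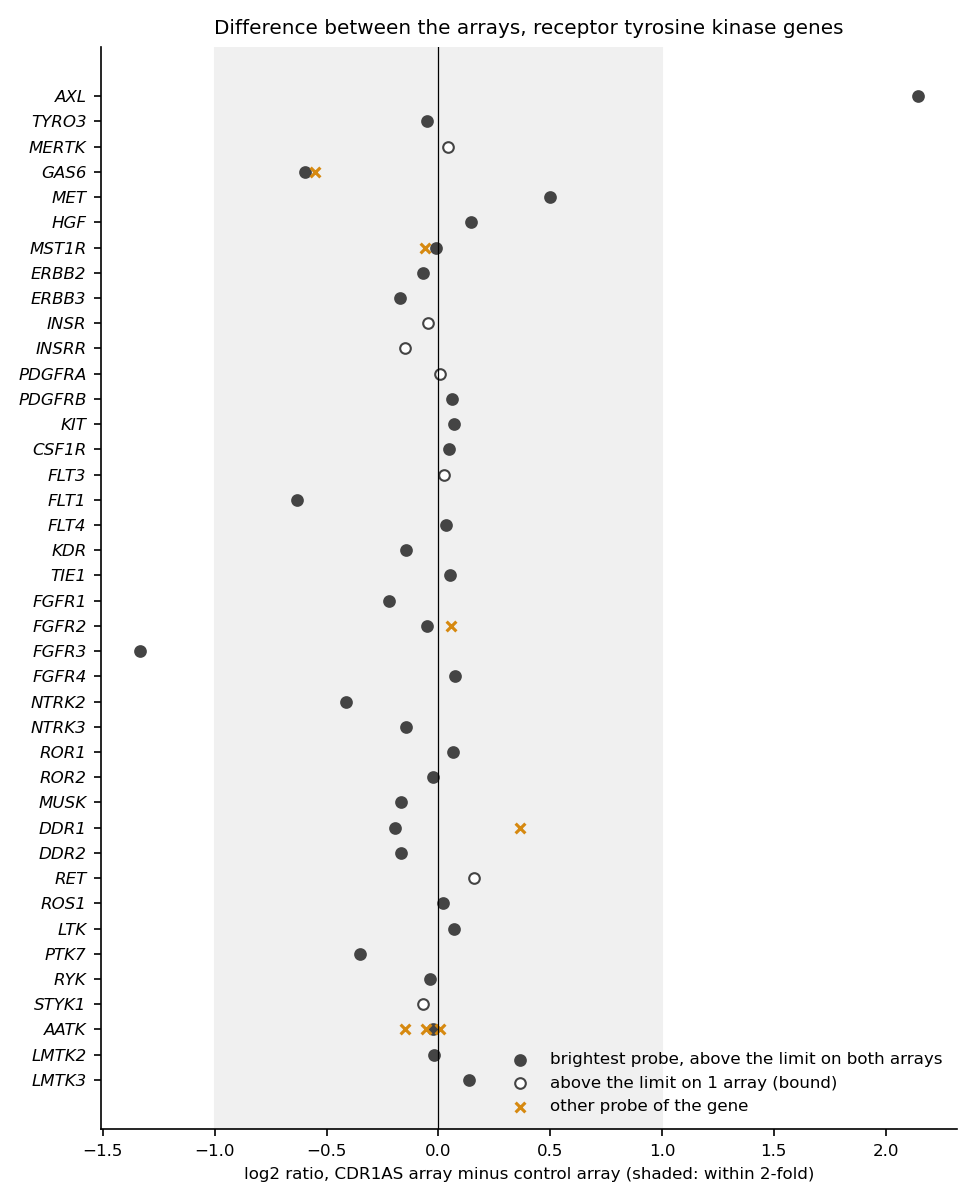
Log2 ratio (CDR1AS array minus control array) of the 40 measured genes by their brightest probe, filled where both arrays were above background and open where 1 was, with other probes of the gene as crosses and the range within 2-fold shaded. AXL (2.14) and FGFR3 (−1.33) lie outside the shading, both GAS6 probes lie near −0.6, and the probes of DDR1 lie on opposite sides of 0.

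In the FGF receptor family, FGFR3 was past 2-fold lower in the main setting and the others were within 2-fold. FGFR3 had 123 units on the CDR1AS array and 268 on the control array, a log2 ratio of −1.33. This value rests on the single probe of FGFR3. In the deposited value table FGFR3 had 24.4 on the CDR1AS array and 96.2 on the control array. The difference was just within 2-fold with the local background column taken as background (−0.97). FGFR3 is known for restraining growth of cartilage and for mutations in bladder cancer.

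FGFR1 had 388 units on the CDR1AS array and 417 on the control array, a log2 ratio of −0.22. FGFR4, which responds to FGF19 together with the co-receptor KLB, had 322 units on the CDR1AS array and 283 on the control array (0.07). FGFR2, whose epithelial splice form binds FGF7 and FGF10, had 94.6 units on the CDR1AS array and 91.9 on the control array (−0.05). The other FGFR2 probe, with 75.9 and 69.5 units on the same arrays, gave 0.06. With the local background column FGFR1 reached −0.51. The 10 measured neighbours of FGFR3 on chromosome 4 had log2 ratios between −0.17 and 0.93, and 0 were past 2-fold. Their median was 0.25, the opposite sign to FGFR3, though UVSSA, FAM53A and NAT8L were below 0.

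In the MET family the receptor MET, which drives scattering and migration of epithelial cells, was 1.41-fold higher. It had 174 units on the CDR1AS array and 119 on the control array, a log2 ratio of 0.50. Its direction was shared by every setting tried in which MET was measured, with values from 0.45 to 0.91. Its ligand HGF, normally made by stromal cells, was near background, with 86.6 units on the CDR1AS array and 75.4 on the control array (0.15). MST1R, the receptor for macrophage-stimulating protein, was within 2-fold, with 302 units on the CDR1AS array and 280 on the control array (−0.01), and its other probe gave −0.06.

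ERBB2 and ERBB3 were slightly lower, within 2-fold in each setting run. ERBB2, which has no ligand of its own and signals through its partners, had 115 units on the CDR1AS array and 113 on the control array (−0.07), and between −0.25 and −0.06 over the settings. ERBB3, which binds neuregulins and is nearly without kinase activity, had 123 units on the CDR1AS array and 128 on the control array (−0.17), and between −0.35 and −0.15 over the settings. ERBB4 was not above background on either array. The insulin receptor INSR was at its limit, with 71.6 units on the CDR1AS array and 69.8 on the control array, and INSRR, a sensor of alkaline pH, had 72.0 units on the CDR1AS array and 73.9 on the control array. Both were above background on the control array only, at least 1.03-fold and 1.11-fold lower after normalization. Bounds so close to 1 give no size, and the INSR spot itself was higher on the CDR1AS array.

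Among receptors typical of vessels, FLT1 had the lowest log2 ratio in the main setting. FLT1, a VEGF receptor that also acts as a decoy, had 74.8 units on the CDR1AS array and 102 on the control array, a log2 ratio of −0.63. The CDR1AS spot lay just above the limit of 72.1, and the size changed with the setting. In the deposited value table FLT1 had 2.4 on the CDR1AS array and 17.1 on the control array, and with the local background column the log2 ratio was −0.03. KDR, the main signalling VEGF receptor, had 135 units on the CDR1AS array and 138 on the control array (−0.14). FLT4, the lymphatic VEGF receptor, had 76.7 units on the CDR1AS array and 71.1 on the control array (0.04), and TIE1, the partner of the angiopoietin receptor TEK, had 83.2 units on the CDR1AS array and 76.4 on the control array (0.05). KDR was below 0 in every setting run, from −0.20 to −0.10.

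The PDGF receptor family had 3 genes detected on both arrays, with log2 ratios between 0.05 and 0.07 in the main setting. PDGFRB, the mesenchymal PDGF receptor, had 169 units on the CDR1AS array and 151 on the control array (0.06), and gave −0.35 with the local background column. KIT, the receptor for stem cell factor, had 88.9 units on the CDR1AS array and 80.8 on the control array (0.07). The other KIT probe, with 69.4 and 65.1 units on the same arrays, was not above background on either. CSF1R, the receptor of macrophage colony-stimulating factor, gave 0.05. PDGFRA, at 73.5 units on the CDR1AS array and 67.9 on the control array, and FLT3, at 74.3 and 67.3, were too close to the limits for a size to be read.

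DDR1, an epithelial receptor for collagen, gave opposite signs by its 2 probes. The brighter probe had 408 units on the CDR1AS array and 430 on the control array (−0.19). The other had 333 units on the CDR1AS array and 242 on the control array (0.37), so the probes differed by more than those of most genes and the direction of DDR1 is not settled. The transcripts each probe detects are not known here. DDR2, the mesenchymal collagen receptor, had 99.7 units on the CDR1AS array and 104 on the control array (−0.17).

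Among receptors of neurons and development, NTRK2 and PTK7 had the lowest values. NTRK2, the receptor of the neurotrophin BDNF, had 128 units on the CDR1AS array and 154 on the control array (−0.41), but gave 0.05 with the local background column. PTK7, a Wnt co-receptor with an inactive kinase, had 118 units on the CDR1AS array and 137 on the control array (−0.35). RYK, also a Wnt receptor with an inactive kinase, had 243 units on the CDR1AS array and 231 on the control array (−0.04). With the local background column RYK gave 0.34.

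MUSK, which organises the neuromuscular synapse, had 156 units on the CDR1AS array and 161 on the control array (−0.17). NTRK3 gave −0.14, and the Wnt5a receptors ROR1 and ROR2 gave 0.07 and −0.02. RET, the receptor of GDNF family ligands, had 80.1 units on the CDR1AS array and was not above background on the control array, at 66.7. It was at least 1.12-fold higher in the main setting, a log2 ratio of 0.16. This bound was 0.37 with an offset of 16 and 0.06 with the local background column, so it gives no size. ROS1 and LTK, related to ALK, gave 0.02 and 0.07. Of the lemur kinases, named with the receptors for their membrane anchor, LMTK3 had 270 units on the CDR1AS array and 227 on the control array (0.14). AATK gave −0.02 by its brightest probe and between −0.15 and 0.01 by the other 3, and LMTK2 gave −0.02. STYK1, a receptor-like kinase, was above background on the control array only and at least 1.05-fold lower after normalization, a bound that gives no size. The STYK1 spot itself had 71.7 units on the CDR1AS array and 70.6 on the control array. Of the 33 genes detected on both arrays, 75.8% had a log2 ratio within 0.2 of 0, against 72.3% of all genes detected on both.

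**Figure D4:**
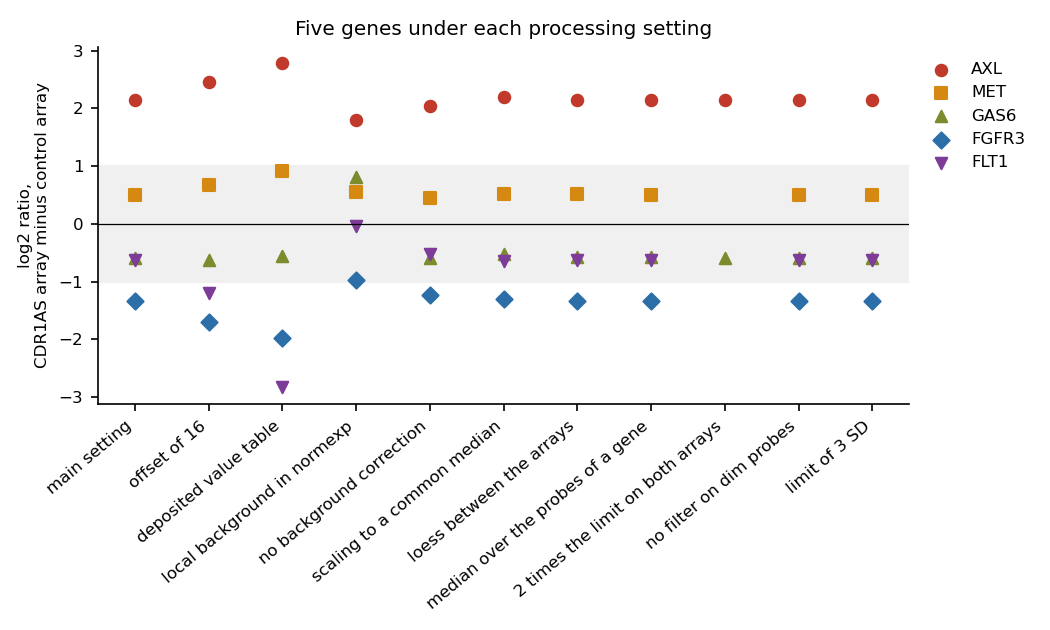
Log2 ratio (CDR1AS array minus control array) of AXL, MET, GAS6, FGFR3 and FLT1 under the main setting and each alternative, with the range within 2-fold shaded, where a gene that an alternative leaves out has no point. AXL lies between 1.80 and 2.78 throughout, FGFR3 reaches −0.97 and FLT1 −0.03 with the local background column, where GAS6 changes sign.

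Genes that act with the receptors were described from 6 lists. Of 44 measured receptor ligands, 1 was at least 2-fold higher (PROS1, above) and 1 at least 2-fold lower, 19 were above 0 and 25 below, and the median was −0.02. PDGFA, a ligand of PDGFRA, had 323 units on the CDR1AS array and 797 on the control array, a log2 ratio of −1.46. Its other probe was dimmer, with 100 and 99.2 units on the same arrays, and gave −0.08, so the difference rested on 1 probe. FGF1 was above background on the CDR1AS array only, with 101 units there and 66.2 on the control array, and was at least 1.47-fold higher. Its bound was a log2 ratio of 1.12 with an offset of 16 and 0.18 with the local background column. Among ligands, PROS1 and PDGFA stood outside a narrow spread whose quartiles were −0.11 and 0.02.

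The 10 measured co-receptors had a median of 0.04 in the main setting. By the values used 0 were past 2-fold, but the value of NRP1 is a lower bound. The neuropilins, co-receptors for VEGF and semaphorins, were highest. NRP1 had 126 units on the CDR1AS array and was not above background on the control array, at 66.7. It was at least 1.89-fold higher, which does not place it within 2-fold. Its bound was a log2 ratio of 1.68 with an offset of 16 and 0.31 with the local background column. NRP2 had 137 units on the CDR1AS array and 89.4 on the control array, a log2 ratio of 0.61. SDC4, a heparan sulfate carrier that presents FGF, was lowest (−0.40).

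In the main setting the 25 measured adaptors had ratios between −0.21 (SOS2, a Ras exchange factor) and 0.29 (IRS1, the insulin receptor substrate), a median of −0.04 and 0 past 2-fold. With the local background column the adaptor gene DOK4, named after its value was seen, gave 1.41. The 19 negative regulators had a median of 0.10, 13 of them above 0 and 6 below, and 1 was past 2-fold. SH3KBP1, which encodes the CIN85 adaptor that takes receptors with CBL into endocytosis, had 457 units on the CDR1AS array and 95.4 on the control array (2.33). CD2AP, its close relative, was lowest of the list, with 225 units on the CDR1AS array and 310 on the control array (−0.59). The related genes thus lay at opposite ends of this list, although CD2AP gave 0.08 with the local background column.

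Of 7 genes of receptor shedding and HGF activation, 6 were below 0 and 0 past 2-fold in the main setting, with a median of −0.19. Of all 16685 measured genes, 8799 were below 0. The lowest was ST14, encoding matriptase, which activates HGF, with 268 units on the CDR1AS array and 477 on the control array (−0.99, just within 2-fold). It was past 2-fold with an offset of 16 and in the deposited value table, at −1.11 in each, and gave −0.94 with the local background column. SPINT2, an inhibitor of such proteases, had 2913 units on the CDR1AS array and 3884 on the control array (−0.52). HGFAC was highest (0.05). The related inhibitor SPINT1, with 216 units on the CDR1AS array and 210 on the control array, gave −0.07, and 0.46 with the local background column, so the inhibitors did not share a direction in every setting.

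The list of YAP, TEAD and AP-1 factors and targets reported to drive AXL also held other factors, namely SP1, SP3, MZF1 and ZEB1. Of its 19 measured genes, 13 had a ratio above 0 and 6 below, where 47.2% of all measured genes were above 0. The median was 0.02. These counts include SP1 (−0.01), SP3 (0.29), MZF1 (−0.25) and ZEB1, so they do not describe the YAP, TEAD and AP-1 pathways alone. JUN, an AP-1 subunit, was the one past 2-fold, with 703 units on the CDR1AS array and 183 on the control array (1.90). With the local background column its log2 ratio was 0.98. The transcriptional co-activator YAP1 (−0.40) and its DNA-binding partner TEAD1 (−0.53, the lowest) were below 0, but gave 0.17 and 0.22 with the local background column. The YAP targets CCN1, ANKRD1, CCN2, AMOTL2 and LATS2 gave 0.31, 0.04, 0.01, 0.02 and −0.09, with 0.72 for the other probe of CCN2. CCN1 was dim, with 88.2 units on the CDR1AS array and 70.1 on the control array. It gave 2.03 in the deposited value table and 0.06 with the local background column. The AP-1 subunit FOSL1 gave 0.03. The mesenchymal repressor gene ZEB1, named after its value was seen, gave 0.70, with 2.23 in the deposited value table and 0.14 with the local background column.

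**Figure D5:**
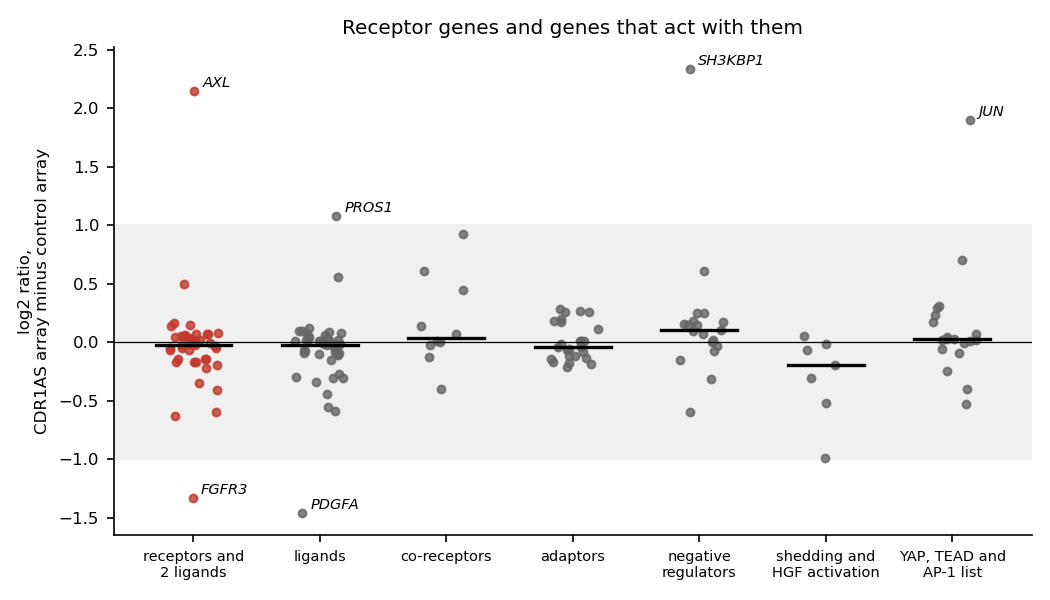
Log2 ratio (CDR1AS array minus control array) of each measured gene among the receptors with GAS6 and HGF (red) and in 6 lists of genes that act with them (grey), with the median as a bar and the range within 2-fold shaded. Medians lie between −0.19 and 0.10, and AXL, FGFR3, PROS1, PDGFA, SH3KBP1 and JUN lie outside the shading.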

How the data were processed

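Total RNA of both cell cultures was extracted with Trizol, amplified as amino allyl RNA, coupled to Cy5 and hybridised to one-colour Toray arrays, per the labels' protocols. Per the file headers, the deposited intensity is each spot's median at 635 nm, scanned with 3 gains. How these were joined, and the build of the array's design, are not given in the sources. The deposited value table held that intensity minus the blank level, multiplied by a factor of its array so that both medians were 25, linear and with no centring of genes (largest residual 0.0559). Its empty cells lay near the blanks.

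Intensities were corrected with limma 3.58.1 in R 4.3.3 (normexp without the local background, offset 50), quantile-normalized over 24459 probes and put on the log2 scale. A single symbol was given for 21706 of them, several for 0 and none for 2753. All 43 symbols matched RefSeq. The brightest probe stood for a gene, which counted as measured if either array detected it. For a gene detected on 1 array, the dim array took the lowest detected value there, or the gene's own if higher, which gives the folds written "at least". Genes past 2-fold were counted, with no test. All members are reported, with the list genes past 2-fold and the highest and lowest of each list, and a few others chosen after their values were seen. Precision is limited by the number of arrays. The steps were tested on simulated data. The members and lists were chosen with earlier results of these data known. Alternatives varied the offset, background, normalization, probe choice and filters.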

Additional observations from a re-analysis of the deposited data

How the results depend on the processing

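AXL was past 2-fold in all 10 alternatives run, with a log2 ratio of 2.78 in the deposited value table and 1.80 with the local background column. In these settings it moved by more than the spread of control spots (0.33). That spread is the largest SD of the positive-control spots on an array, 0.24, multiplied by the square root of 2. AXL was the single gene of the set past 2-fold on the higher side in each. On the lower side the count was 2 with an offset of 16 (FGFR3 and FLT1) and 4 in the deposited value table (FGFR3, FLT1, INSRR and STYK1). It was 0 with the local background column and 0 with the stricter filter, which kept 11 genes and dropped FGFR3 by construction. INSRR and STYK1 had deposited values of 1.2 and 1.0 on the CDR1AS array and 3.9 and 2.3 on the control array, within a few units of the blanks. The cause of the other differences was not tested. Genes of the set above 2 times the blank limit numbered 12 on the CDR1AS array and 14 on the control array, with no share of all genes given for each array alone. A limit of 3 SD gave 37 on the CDR1AS array and 34 on the control array. The median of the measured genes lay between −0.09 and −0.01 in all 10 alternatives. Over all genes, those past 2-fold numbered 126 higher and 96 lower in the main setting, 229 and 172 with an offset of 16, 541 and 367 in the deposited value table, and 763 and 554 with the local background column. For the genes other than AXL, 338 of 355 values under the alternatives stayed within the spread of control spots, 17 moved and 0 past 2-fold reversed. No paired analysis was possible because each group had 1 array. Closeness to the blanks limits most of these genes, and the offset pulls their folds towards 1. Whether the folds without an offset lie nearer the true size was not tested.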
